A study of Homo sapiens and Mus musculus with 18 samples.

Results

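Mesothelium-like cells (MLC) were set against mesothelium that had been expanded in serum (MesoT FCS), gene by gene, over every gene of the counted transcriptome. The members were the 4 libraries that the labels give as MLC replicates 1 and 2 and MesoT FCS passage 4 replicates 1 and 2, out of 18 samples in the series. The submitters call MLC the epithelial form and MesoT the mesenchymal form of mesothelium made from stem cells, and the comparison asks how their transcripts differ. MLC and MesoT FCS both descended from WA09, a human embryonic stem cell line used at passages 47 to 60, and both passed through splanchnic mesoderm induced over 4 days with 25 ng/ml WNT3A and 100 ng/ml BMP4. For MLC, the splanchnic mesoderm was replated at 150000 cells/cm2 in chemically defined medium from which FGF2 and Activin A were left out, with 20 µM SB431542, an inhibitor of the TGF-beta type I receptors, and 4 µM retinoic acid, up to day 18 in all. For MesoT FCS, the splanchnic mesoderm had instead been given 25 ng/ml WNT3A, 50 ng/ml BMP4 and 4 µM retinoic acid for 14 to 18 further days, and the resulting MesoT cells were then passaged to passage 4 in alpha-MEM with 10% fetal bovine serum and 8 ng/ml FGF2, at 50000 and later 10000 cells/cm2. MLC and MesoT FCS therefore differed in inhibitor, retinoic acid at harvest, basal medium, serum, FGF2, WNT3A, BMP4, seeding density, passaging and time in culture all together, and these cannot be told apart. Both groups came from 1 cell line, and nothing in the labels says that the 2 replicates of a group were separate cultures. The p-values therefore measure only the spread between libraries of the same group. MesoT at day 18, before any serum, is given beside both groups as a level and was not itself tested. Its 2 libraries and 1 smooth muscle library were in the fit, so the day 18 spread also enters every p-value.

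Mesothelium is the simple epithelium that lines the body cavities and covers the organs in them. In the embryo its cells can lose their junctions and become mesenchymal, and mesothelium is known as a source of smooth muscle cells and fibroblasts of the underlying organs. TGF-beta, which signals through type I receptors to SMAD2 and SMAD3, is a well-known inducer of that change. Retinoic acid acts through nuclear receptors and is made by embryonic mesothelium itself. BMP signals reach the nucleus through SMAD1, SMAD5 and SMAD9, and WNT signals through beta-catenin and the TCF and LEF factors.

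Poly-A RNA was sequenced, and the deposited values were raw counts per Ensembl gene. The MLC libraries held 70679258 and 65709545 counts, against 27387053 and 21148477 in the MesoT FCS libraries. The MLC replicates lay closer together than the MesoT FCS replicates: 5.41% of genes differed by more than 2-fold between the MLC libraries, against 19.2% between the MesoT FCS libraries. Levels are CPM, counts per 1e6 counts of the library, scaled by the trimmed mean of M values (TMM), given for replicate 1 and then replicate 2 of each group (n = 2). Log2 fold changes are MLC over MesoT FCS with their standard error, and a gene is called at a Benjamini-Hochberg adjusted p under 0.05 in edgeR's quasi-likelihood F test over all genes tested. Where a group had 0 counts, the fold is a lower bound computed from 3 counts over that group. Where it had 1 to 3 counts, the ratio of MLC over MesoT FCS is given with a 95% exact interval for counting error only. Mitochondrially encoded genes took 6.84% and 7.76% of counts in MLC, against 2.88% and 2.48% in MesoT FCS. Without TMM scaling, genes whose symbols name an antisense, intronic, overlapping or divergent transcript summed to 3493 and 3558 CPM in MLC, against 8642 and 7897 CPM in MesoT FCS. The mitochondrial tRNA genes on the strand of MT-ND6 summed to 15.52 and 11.9 CPM in MLC, against 145 and 92.6 CPM in MesoT FCS, whereas those on the other strand summed to 13.9 and 12.5 CPM in MLC, against 23.7 and 22.7 CPM in MesoT FCS. At MesoT day 18 the sums were 166.4 and 155.6 CPM on the strand of MT-ND6. Genes with such antisense-type names summed there to 8827 and 10341 CPM. On these sums MLC stood apart from both MesoT groups. Of 1344 genes so named and tested, 12.8% were higher and 38.9% lower in MLC, beside 22.6% and 26.3% over all genes. Whether libraries were made or counted differently was not tested, and such a difference would coincide with the groups. The strand setting used to count each file is not given in the sources used here. The counts of genes that overlap another gene on the opposite strand are therefore uncertain, and known overlaps are named in most paragraphs. Overlap could be looked up only for genes with a strand in the RefSeq promoter table. Of 23049 genes tested, 4693 without antisense-type names had a known overlap, and for 8085 of known strand none was found. A gene not named as overlapping is therefore not shown to be free of overlap. Other alternatives, where a call is said to be lost in some of them, are changes of scaling, filter, tool, depth or genes that keep every MLC and MesoT FCS library. Where leaving out a library moves a count of calls by over 1.5 times, the counts with each left out are given for MLC replicates 1 and 2 and then MesoT FCS replicates 1 and 2. Such a fit holds 1 library in that group and has fewer libraries to measure the spread from. The threshold can then be missed though the fold change hardly moves. In bulk RNA, fewer cells of a type and less RNA per cell cannot be told apart.

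Of 23049 genes tested, 5202 rose and 6070 fell in MLC relative to MesoT FCS, which is 48.9% called, 22.6% higher and 26.3% lower. The median log2 fold change over all genes was 0.000. Large differences were common: among the called genes, 2597 were higher and 3707 lower by more than 4-fold, and 1287 were higher and 2235 lower by more than 16-fold. The libraries of the groups did not overlap for 11268 of the 11272 genes called. With 2 libraries a group a call nearly requires this, so it adds no support, and the share over all genes is not given. At MesoT day 18, the mean level lay between those of MLC and MesoT FCS for 4061 of the 5202 genes higher in MLC and for 3813 of the 6070 lower, above both for 860 and 1316 and below both for 281 and 941. With MLC replicate 1 left out, 2429 genes were higher and 3129 lower, and with MLC replicate 2 left out 2132 and 2830. With MesoT FCS replicate 1 left out, 3586 and 4474 were called, and with replicate 2 left out 3648 and 4859. Fitted alone, the 8088 genes of known strand with no overlap found on the opposite strand gave 1872 higher and 1718 lower. That set also leaves out every gene whose strand was not known. Fitted without the day 18 and smooth muscle libraries, all genes gave 6886 higher and 6296 lower. The larger share lay on the other side in both fits.

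The 36 gene lists described below fell on both sides of 0. Beside the 48.9% called over all genes, 70% were called of the mesothelial, mesenchymal, glycolysis and gut epithelium lists. The share was 75% for antagonists, cell cycle inhibitors and neural markers, 76.5% for amnion, 77.8% for contractile and 78.6% for caveola genes. It was 84.6% for mitochondrial, 87.5% for BMP response, 93.3% for WNT response, 96.7% for junction and 33.3% for blood and immune genes. Among lists of at least 10 tested members, hepatocyte, gut epithelium, amnion, junction and WNT response genes had the highest medians, and contractile, caveola, TGF-beta response and posterior HOX genes the lowest.

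**Figure D1:**
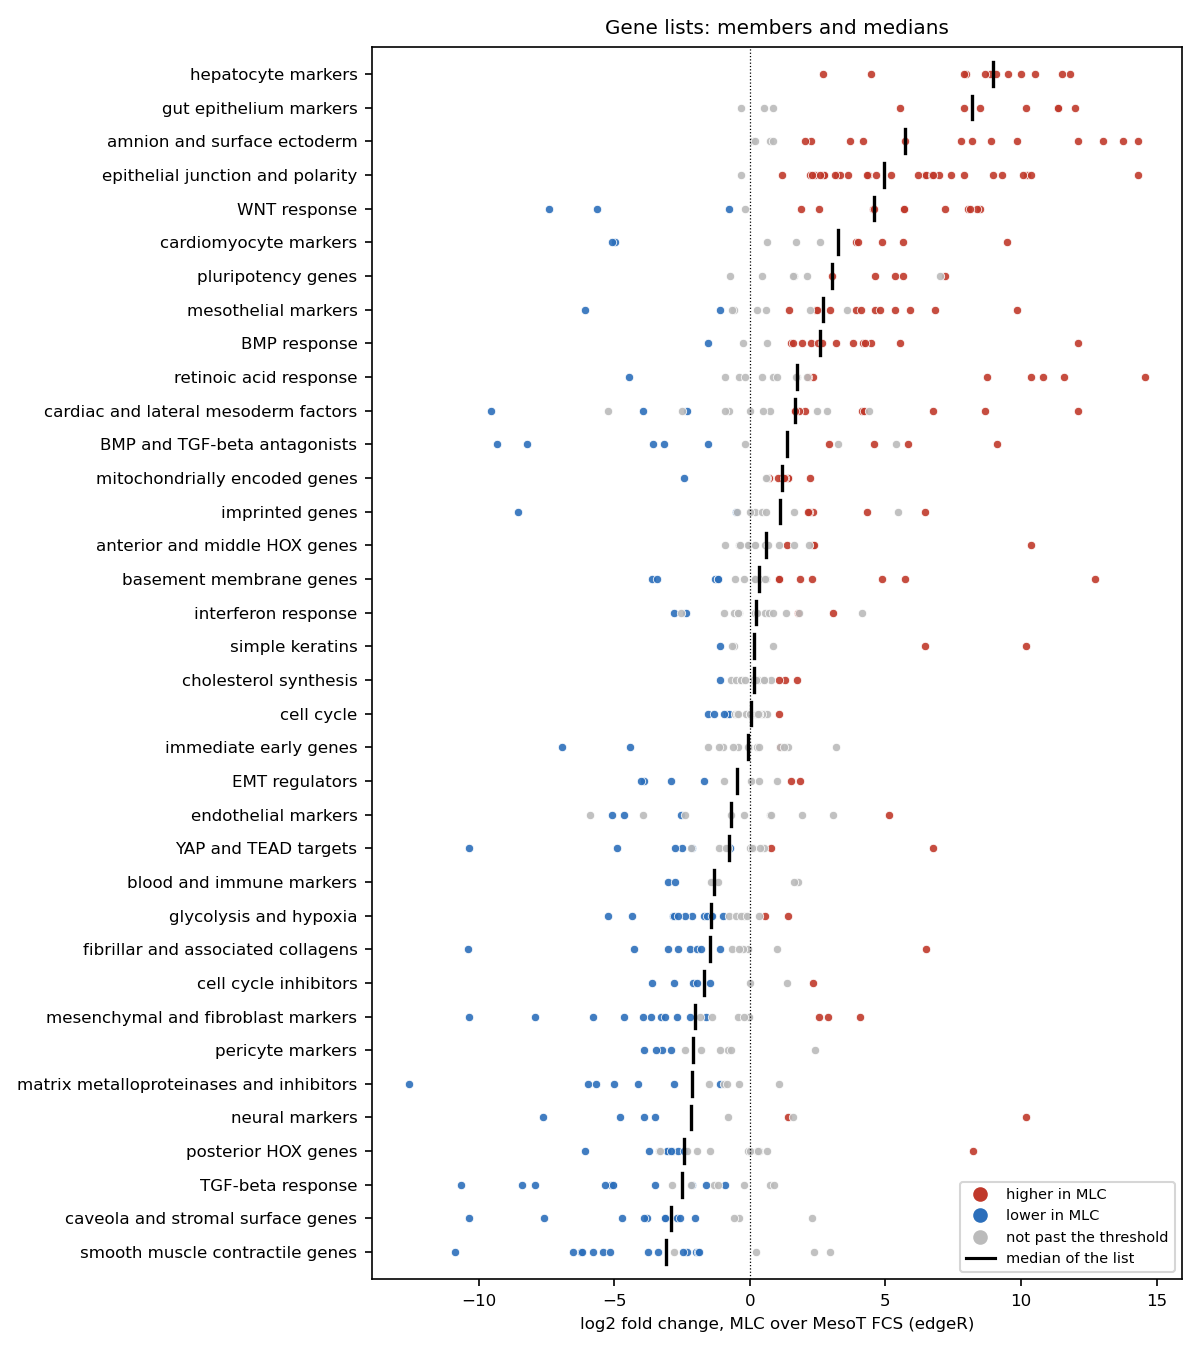
Gene lists run down the page by their median, and the x axis is the fitted log2 fold change of MLC over MesoT FCS. Each point is a member (red higher in MLC, blue lower, grey not past the threshold) and each bar the median; values beyond about 8 in size rest mostly on genes at or near 0 in a group. Junction genes lie almost wholly to the right with a median of 4.95, and contractile genes mostly to the left with a median of -3.09.

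Of the 5 genes that mark this contrast, FREM2, GABRP and VTCN1 were high in MLC and near 0 in MesoT FCS, and GREM1 and ACTG2 the reverse. FREM2 (ENSG00000150893), an extracellular matrix protein of embryonic epithelial basement membranes, had 678 and 745 CPM in MLC, against 0.0447 and 0.168 CPM in MesoT FCS (log2 fold change 12.75 ± 0.78, adjusted p = 0.000271). GABRP (ENSG00000094755), a GABA-A receptor subunit, had 539 and 608 CPM in MLC, against 0.0447 and 0 CPM in MesoT FCS (ratio 23065 with a counting interval of 4139.6 to 911030.0, adjusted p = 0.000142). VTCN1 (ENSG00000134258), an immune checkpoint protein also found on epithelia, had 225 and 249 CPM in MLC, against 0 and 0.0558 CPM in MesoT FCS (ratio 9529 with a counting interval of 1710.1 to 376370.0, adjusted p = 0.000142). Each of these was abundant in both MLC libraries and near 0 in both MesoT FCS libraries. GREM1 (ENSG00000166923), a secreted antagonist of BMPs, had 0.304 and 0.556 CPM in MLC, against 317 and 231 CPM in MesoT FCS (log2 fold change -9.31 ± 0.41, adjusted p = 0.000171). ACTG2 (ENSG00000163017), the gamma actin of smooth muscle, had 0.397 and 0.385 CPM in MLC, against 1239.9 and 218 CPM in MesoT FCS (log2 fold change -10.85 ± 1.26, adjusted p = 0.0016). The MesoT FCS libraries stood well apart from each other for ACTG2 and close together for GREM1, and neither overlapped MLC. FREM2 and GREM1 overlap a gene on the opposite strand.

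Mesothelial markers were mostly higher in MLC: of 20 tested, 12 rose and 2 fell, with a median log2 fold change of 2.72. WT1 (ENSG00000184937), a transcription factor that defines embryonic mesothelium, had 217 and 148 CPM in MLC, against 5.58 and 3.41 CPM in MesoT FCS (log2 fold change 5.34 ± 0.45, adjusted p = 0.000628). UPK3B (ENSG00000243566), a uroplakin of the mesothelial surface, had 55.9 and 38.1 CPM in MLC, against 0.714 and 0.0558 CPM in MesoT FCS (log2 fold change 6.84 ± 0.88, adjusted p = 0.00218). MSLN (ENSG00000102854), mesothelin, was low everywhere at 3.21 and 2.04 CPM in MLC, against 0.268 and 0.0558 CPM in MesoT FCS (log2 fold change 3.93 ± 0.87, adjusted p = 0.0131). For each of these markers the MLC libraries lay above both MesoT FCS libraries. TCF21 (ENSG00000118526), a transcription factor of coelomic mesenchyme and mesothelium, had 25.5 and 45.3 CPM in MLC, against 0.268 and 0.949 CPM in MesoT FCS (log2 fold change 5.9003 ± 0.88, adjusted p = 0.00356). PDPN, podoplanin, had 96.7 and 67.6 CPM in MLC, against 4.78 and 1.01 CPM in MesoT FCS (log2 fold change 4.802 ± 0.68, adjusted p = 0.00296). CLDN15, a claudin of mesothelium, had 32.9 and 38.4 CPM in MLC, against 5.54 and 7.71 CPM in MesoT FCS (log2 fold change 2.43 ± 0.29, adjusted p = 0.00181). EZR, which ties microvilli to actin, had 986 and 879 CPM in MLC, against 309 and 373 CPM in MesoT FCS (log2 fold change 1.45 ± 0.202, adjusted p = 0.00289). ALDH1A2, BNC1, LRRN4, MUC16 and TBX18 also rose. Both members that fell are secreted or cytoskeletal products: PRG4, a lubricant glycoprotein, had 0.0529 and 0.0997 CPM in MLC, against 4.24 and 6.31 CPM in MesoT FCS (log2 fold change -6.06 ± 0.501, adjusted p = 0.000602), and KRT19 (ENSG00000171345), a keratin of simple epithelia, had 389 and 412 CPM in MLC, against 1059.6 and 652 CPM in MesoT FCS (log2 fold change -1.097 ± 0.29, adjusted p = 0.0246). CALB2, the calretinin gene used as a mesothelial stain, had 2.91 and 2.73 CPM in MLC, against 1.96 and 2.68 CPM in MesoT FCS (log2 fold change 0.28 ± 0.32, adjusted p = 0.487), a difference that did not pass the test, and neither did the other 5 members. UPK3B has close copies among the uroplakin genes, and WT1, UPK3B, EZR, ALDH1A2, BNC1 and PRG4 overlap a gene on the opposite strand. Mesothelial markers that fell numbered 1, 1, 1 and 2, with each library left out. MSLN missed the threshold without MLC replicate 1 or MesoT FCS replicate 2 (adjusted p = 0.0544 to 0.0682). KRT19 missed the threshold without either MLC library or MesoT FCS replicate 1 (adjusted p = 0.102 to 0.139). LRRN4 and TBX18 missed the threshold without either MLC library (adjusted p = 0.0532 to 0.0777). MUC16 missed the threshold without MLC replicate 2 (adjusted p = 0.0588). Fits with a library less gave log2 fold changes of -0.71 for KRT19 without MesoT FCS replicate 1.

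**Figure D2:**
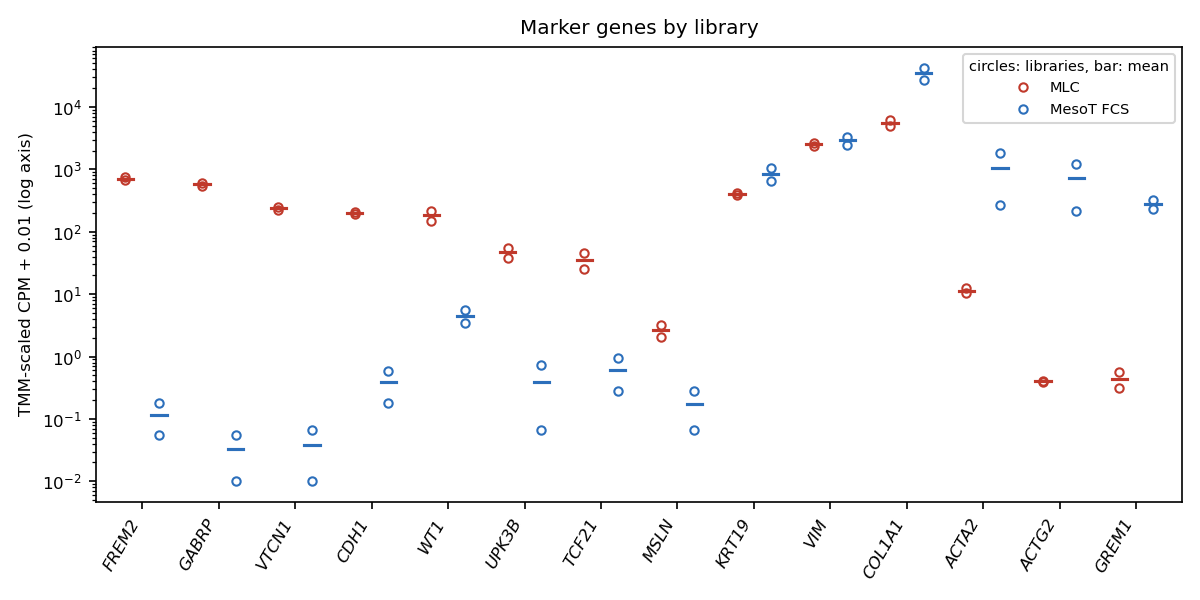
The y axis is TMM-scaled CPM plus 0.01 on a log scale; circles are libraries and bars group means, with MLC in red left of MesoT FCS in blue for each gene. FREM2, GABRP, VTCN1, CDH1 and WT1 lie far above MesoT FCS in both MLC libraries, VIM overlaps between the groups, and ACTA2, ACTG2 and GREM1 lie far below.

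Genes of epithelial junctions and polarity rose almost throughout in MLC. Of 30 tested, 29 rose and 0 fell, with a median of 4.95, and the list summed to 2895 and 2761 CPM in MLC, against 808 and 581 CPM in MesoT FCS. CDH1 (ENSG00000039068), E-cadherin of the adherens junction, had 191 and 205 CPM in MLC, against 0.5805 and 0.168 CPM in MesoT FCS (log2 fold change 8.98 ± 0.46, adjusted p = 0.000197). CDH3, P-cadherin, had 390.4 and 365 CPM in MLC, against 6.92 and 1.56 CPM in MesoT FCS (log2 fold change 6.46 ± 0.77, adjusted p = 0.00177). The MLC libraries agreed closely for both cadherins and lay far above MesoT FCS. Among regulators of the epithelial state, GRHL2, a transcription factor that maintains epithelial genes, had 64.9 and 66.3 CPM in MLC, against 0 CPM in both MesoT FCS libraries (at least 881-fold higher, adjusted p = 0.000173). OVOL2, a repressor of the mesenchymal programme, had 4.34 and 4.16 CPM in MLC, against 0 CPM in both MesoT FCS libraries (at least 57.1-fold higher, adjusted p = 0.00202). ESRP1, an RNA-binding protein that sets epithelial splicing, had 69.01 and 59.1 CPM in MLC, against 0 and 0.112 CPM in MesoT FCS (ratio 1294 with a counting interval of 358 to 10689, adjusted p = 0.000211). None of these regulators had more than a trace of counts in MesoT FCS. Of the surface proteins, EPCAM had 75.1 and 69.8 CPM in MLC, against 1.88 and 3.85 CPM in MesoT FCS (log2 fold change 4.67 ± 0.37, adjusted p = 0.000538). F11R, the junctional adhesion molecule A, had 92.7 and 76.9 CPM in MLC, against 7.32 and 6.25 CPM in MesoT FCS (log2 fold change 3.64 ± 0.2002, adjusted p = 0.000222). ST14, the protease matriptase, had 17.2 and 17.8 CPM in MLC, against 0.0447 and 0 CPM in MesoT FCS (ratio 706 with a counting interval of 127 to 27884, adjusted p = 0.000188). CLDN3, CLDN4, CLDN6, CLDN7, CRB3, DSP, ESRP2, GRHL1, GRHL3, LLGL2, MARVELD2, MARVELD3, OCLN, OVOL1, PATJ, PKP2, PKP3, RAB25, SPINT1, SPINT2 and TJP3 rose too, among them claudins of the tight junction, plakophilins of the desmosome and polarity proteins. JUP, plakoglobin, was the exception with 347 and 284 CPM in MLC, against 466 and 331 CPM in MesoT FCS (log2 fold change -0.34 ± 0.27, adjusted p = 0.333), and its libraries overlapped between the groups. CLDN7, CRB3, DSP, GRHL1, GRHL3, PATJ, SPINT1 and TJP3 overlap a gene on the opposite strand. CLDN4 missed the threshold without MLC replicate 2 (adjusted p = 0.0835).

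The sequence CACCTG is the E-box that repressors of the SNAI and ZEB families bind, and CRB3, an apical polarity protein, is a known target. CRB3 had 3.56 and 3.504 CPM in MLC, against 0 and 0.0558 CPM in MesoT FCS (ratio 142 with a counting interval of 25.4 to 5631, adjusted p = 0.000958). Of the 15 junction genes with an entry in the RefSeq promoter table of GRCh38.p14 (250 bases before to 50 after the start), 8 held CACCTG on either strand, 53.3%, against 20.6% of all 27305 promoters. The 250 bases before the CRB3 start, chr19:6464021-6464270 on the plus strand, are shown because they hold 5 matches, which begin 228, 208, 147, 89 and 60 bases before the start and are in capitals.
CRB3: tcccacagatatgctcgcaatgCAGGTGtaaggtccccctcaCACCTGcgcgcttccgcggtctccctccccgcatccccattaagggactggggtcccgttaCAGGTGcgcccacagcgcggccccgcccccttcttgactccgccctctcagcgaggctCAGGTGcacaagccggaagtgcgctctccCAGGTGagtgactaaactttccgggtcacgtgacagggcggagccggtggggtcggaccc
No match overlapped a match of another motif searched. A match is a run of letters and not evidence of binding. CRB3 overlaps a gene on the opposite strand.

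Regulators of epithelial-mesenchymal transition did not move as a group. Of 10 tested, 2 rose and 4 fell, 60.0% called, with a median of -0.45. SNAI1, a repressor of E-cadherin, was higher in MLC, with 66.4 and 57.3 CPM in MLC, against 14.2 and 20.4 CPM in MesoT FCS (log2 fold change 1.84 ± 0.604, adjusted p = 0.0472), and so was TWIST1, a basic helix-loop-helix factor of mesenchyme, with 103 and 130.2 CPM in MLC, against 36.7 and 45.5 CPM in MesoT FCS (log2 fold change 1.51 ± 0.49, adjusted p = 0.0453). On the other side, ZEB1, another repressor of E-cadherin, had 12.97 and 22.2 CPM in MLC, against 55.4 and 58.6 CPM in MesoT FCS (log2 fold change -1.69 ± 0.29, adjusted p = 0.00553). The groups did not overlap for these 3 genes. PRRX1, a homeobox factor of mesenchyme, had 3.0004 and 7.66 CPM in MLC, against 65.1 and 105 CPM in MesoT FCS (log2 fold change -3.9996 ± 0.99, adjusted p = 0.0196). FOXC2, a forkhead factor, had 3.69 and 2.48 CPM in MLC, against 59.7 and 32.2 CPM in MesoT FCS (log2 fold change -3.896 ± 0.43, adjusted p = 0.00141). TWIST2 had 1.401 and 2.22 CPM in MLC, against 13.1 and 13.8 CPM in MesoT FCS (log2 fold change -2.89 ± 0.66, adjusted p = 0.015). SNAI2, the close relative of SNAI1, had 57.1 and 58.6 CPM in MLC, against 57.1 and 54.6 CPM in MesoT FCS (log2 fold change 0.05 ± 0.14, adjusted p = 0.778). The other 3 members did not pass the test. Simple keratins did not move together either, with 2 higher and 1 lower of 6 tested, 50.0% called. KRT8 had 1980.5 and 1451 CPM in MLC, against 3669 and 1798 CPM in MesoT FCS (log2 fold change -0.67 ± 0.45, adjusted p = 0.258). KRT18 had 837 and 576 CPM in MLC, against 1461 and 627 CPM in MesoT FCS (log2 fold change -0.56 ± 0.48, adjusted p = 0.363). Both overlapped between the groups. KRT23 rose, with 11.9 and 11.01 CPM in MLC, against 0.0447 and 0.223 CPM in MesoT FCS (log2 fold change 6.46 ± 0.603, adjusted p = 0.000842), as did KRT20, with 3.66 and 3.85 CPM in MLC, against 0 CPM in both MesoT FCS libraries (at least 50.4-fold higher, adjusted p = 0.00363). KRT7 had 238 and 147 CPM in MLC, against 199.6 and 12.7 CPM in MesoT FCS (log2 fold change 0.86 ± 1.11, adjusted p = 0.543), its MesoT FCS libraries far apart. KRT8 and KRT18 have many processed copies in the genome, which reads may be split with. ZEB1 and KRT20 overlap a gene on the opposite strand. Transition regulators that rose numbered 0, 0, 0 and 1, and those that fell 2, 2, 4 and 3, with each library left out. Simple keratins that fell numbered 0, 0, 0 and 1, with each library left out. SNAI1 and TWIST1 missed the threshold without any 1 of the 4 libraries (adjusted p = 0.109 to 0.187). PRRX1 missed the threshold without either MLC library or MesoT FCS replicate 2 (adjusted p = 0.0632 to 0.113). TWIST2 missed the threshold without either MLC library (adjusted p = 0.0718 to 0.101). KRT7 passed the threshold without MesoT FCS replicate 1 (adjusted p = 0.0181). SNAI1 missed the threshold in 2 of 9 other alternatives (adjusted p = 0.0517 to 0.0578). TWIST1 missed the threshold in 1 of 9 other alternatives (adjusted p = 0.0551).

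Contractile genes of smooth muscle were lower in MLC. Of 18 tested, 0 rose and 14 fell, with a median of -3.09. Their sum was 1516 and 1482 CPM in MLC, against 16908 and 6582 CPM in MesoT FCS. ACTA2 (ENSG00000107796), the alpha actin of smooth muscle, had 10.3 and 12.5 CPM in MLC, against 1829.9 and 264 CPM in MesoT FCS (log2 fold change -6.52 ± 1.35, adjusted p = 0.0107). TAGLN, an actin-binding protein, had 37.3 and 25.1 CPM in MLC, against 3457 and 1053 CPM in MesoT FCS (log2 fold change -6.17 ± 1.17, adjusted p = 0.00787). MYH11, the smooth muscle myosin heavy chain, had 0.0925 and 0.0997 CPM in MLC, against 5.54 and 5.42 CPM in MesoT FCS (log2 fold change -5.79 ± 0.49, adjusted p = 0.000656). MesoT FCS replicate 1 stood above replicate 2 for ACTA2 and TAGLN, and for MYH11 the 2 were level. No MLC library reached either. MYOCD, the coactivator of serum response factor that switches these genes on, had 0.7402 and 1.21 CPM in MLC, against 44.5 and 24.3 CPM in MesoT FCS (log2 fold change -5.14 ± 0.76, adjusted p = 0.00347). MYL9, a myosin light chain, had 117 and 100.02 CPM in MLC, against 2008 and 909 CPM in MesoT FCS (log2 fold change -3.75 ± 0.66, adjusted p = 0.00617). LDB3, a protein of the contractile lattice, had 0.211 and 0.256 CPM in MLC, against 16.1 and 3.91 CPM in MesoT FCS (log2 fold change -5.405 ± 0.78, adjusted p = 0.00323). ACTG2, CALD1, LMOD1, MYLK, PLN, SMTN, TPM1 and TPM2 fell as well. CNN1, calponin, had 54.7 and 39.5 CPM in MLC, against 531 and 119 CPM in MesoT FCS (log2 fold change -2.79 ± 0.94, adjusted p = 0.0515), which did not pass the test. DES, desmin, had 89.2 and 92.1 CPM in MLC, against 32.5 and 2.68 CPM in MesoT FCS (log2 fold change 2.36 ± 0.98, adjusted p = 0.0912), also short of the threshold. The other 2 members did not pass it. Actin genes are near-identical in their coding sequence, so their counts are uncertain, and ACTA2, CALD1, MYLK, PLN and TPM1 overlap a gene on the opposite strand. Contractile genes that rose numbered 0, 0, 2 and 1, and those that fell 5, 4, 11 and 15, with each library left out. ACTA2, TAGLN, MYL9, CALD1, TPM1 and TPM2 missed the threshold without either MLC library (adjusted p = 0.0507 to 0.082). LMOD1, MYLK and SMTN missed the threshold without either MLC library or MesoT FCS replicate 1 (adjusted p = 0.0618 to 0.313). PLN missed the threshold without MLC replicate 2 (adjusted p = 0.0647). CNN1 passed the threshold without MesoT FCS replicate 2 (adjusted p = 0.0335). DES passed the threshold without either MesoT FCS library (adjusted p = 0.00314 to 0.0295). LMOD1 missed the threshold in 5 of 10 other alternatives (adjusted p = 0.0503 to 0.0736).

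The CArG box is the sequence that serum response factor binds. It was found on either strand in the promoters of 3 of 13 contractile genes with an entry, 23.1%, against 1.29% of all promoters. The 250 bases before the start are shown for 2 of the 3 as examples, with the boxes in capitals: ACTG2 at chr2:73892758-73893007 on the plus strand, with boxes that begin 110 and 73 bases before the start, and MYLK, myosin light chain kinase, at chr3:123620549-123620798 on the minus strand, with a box 94 bases before it.
ACTG2: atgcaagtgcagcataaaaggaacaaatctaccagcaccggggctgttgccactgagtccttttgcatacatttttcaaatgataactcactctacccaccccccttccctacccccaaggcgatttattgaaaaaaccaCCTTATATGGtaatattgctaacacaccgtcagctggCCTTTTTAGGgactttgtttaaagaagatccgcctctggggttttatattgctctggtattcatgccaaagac
MYLK: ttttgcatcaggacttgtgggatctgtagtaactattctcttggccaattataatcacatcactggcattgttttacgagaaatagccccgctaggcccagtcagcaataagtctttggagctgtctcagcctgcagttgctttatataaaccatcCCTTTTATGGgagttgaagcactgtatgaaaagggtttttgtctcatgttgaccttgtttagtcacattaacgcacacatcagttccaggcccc
MYLK had 54.2 and 35.1 CPM in MLC, against 207 and 146 CPM in MesoT FCS (log2 fold change -1.98 ± 0.48, adjusted p = 0.0174), so its fall was far smaller than that of ACTG2. MYLK overlaps a gene on the opposite strand. MYLK missed the threshold without either MLC library or MesoT FCS replicate 1 (adjusted p = 0.0618 to 0.116).

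**Figure D3:**
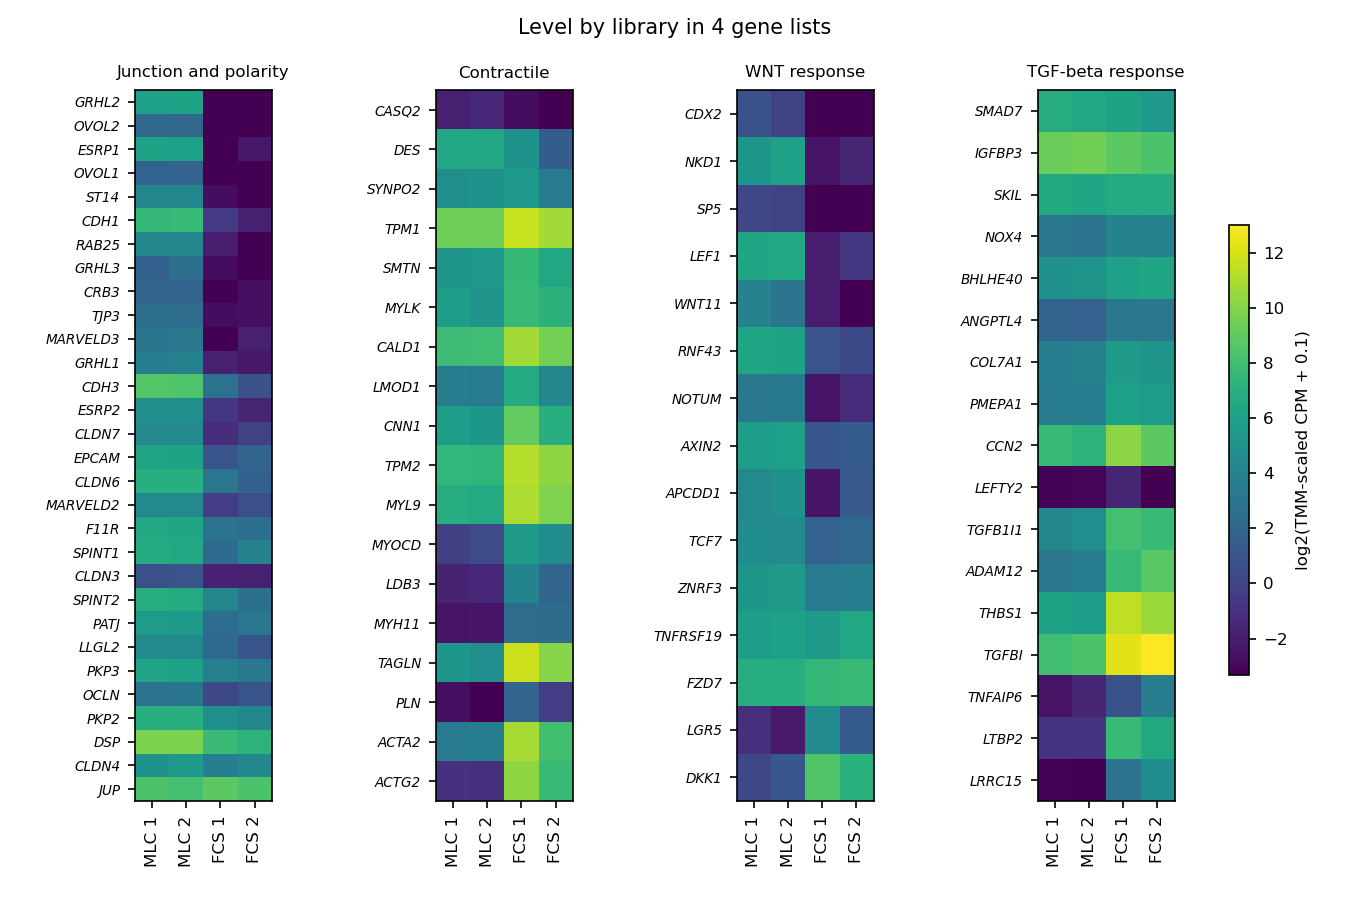
Rows are tested members of 4 gene lists, ordered by log2 fold change, columns are the libraries (MLC 1 and 2, then MesoT FCS 1 and 2), and the colour is the log2 of TMM-scaled CPM plus 0.1. Nearly all junction and most WNT response genes are brighter in both MLC columns, and most contractile and TGF-beta response genes in both MesoT FCS columns.

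Genes known to respond to TGF-beta were lower in MLC, the group given the receptor inhibitor. The part of the inhibitor was not tested, since it changed together with all else that differed between the groups. Of 18 tested, 0 rose and 11 fell, with a median of -2.52. The share called was 61.1%, beside 48.9% over all genes. TGFBI, a matrix protein induced by TGF-beta, had 256 and 330.5 CPM in MLC, against 4931 and 15419.6 CPM in MesoT FCS (log2 fold change -5.12 ± 0.63, adjusted p = 0.0019). THBS1, a matrix protein that activates latent TGF-beta, had 72.2 and 57.9 CPM in MLC, against 2819 and 1479 CPM in MesoT FCS (log2 fold change -5.05 ± 0.83, adjusted p = 0.00495). TGFBI and THBS1 were abundant in both MesoT FCS libraries and lay far lower in both MLC libraries. LTBP2, a latent TGF-beta binding protein, had 0.476 and 0.456 CPM in MLC, against 217 and 97.3 CPM in MesoT FCS (log2 fold change -8.39 ± 1.33, adjusted p = 0.00435). LRRC15, a stromal membrane protein, had 0.0132 and 0 CPM in MLC, against 7.32 and 24.9 CPM in MesoT FCS (ratio 0.000453 with a counting interval of 0.0000114 to 0.00253, adjusted p = 0.000983). ADAM12, a metalloprotease, had 8.72 and 11.4 CPM in MLC, against 211 and 445 CPM in MesoT FCS (log2 fold change -5.03 ± 1.16, adjusted p = 0.0154). COL7A1, NOX4, PMEPA1, TGFB1I1 and TNFAIP6 fell as well. The feedback inhibitors SMAD7 and SKIL, which TGF-beta itself induces, did not pass the test. SMAD7 had 114 and 91.9 CPM in MLC, against 67.1 and 44.8 CPM in MesoT FCS (log2 fold change 0.88 ± 0.38, adjusted p = 0.102). SKIL had 94.8 and 81.7 CPM in MLC, against 99.3 and 104 CPM in MesoT FCS (log2 fold change -0.202 ± 0.33, adjusted p = 0.629). CCN2, a matricellular protein, had 213 and 151 CPM in MLC, against 1171 and 467 CPM in MesoT FCS (log2 fold change -2.17 ± 0.89, adjusted p = 0.088), and the other 4 members did not pass the test either. THBS1, LTBP2, PMEPA1 and TNFAIP6 overlap a gene on the opposite strand. TGF-beta response genes that fell numbered 6, 5, 10 and 10, with each library left out. THBS1 missed the threshold without MLC replicate 2 (adjusted p = 0.0521). ADAM12 and PMEPA1 missed the threshold without either MLC library (adjusted p = 0.0639 to 0.102). NOX4 missed the threshold without either MLC library or MesoT FCS replicate 1 (adjusted p = 0.0577 to 0.13). TNFAIP6 missed the threshold without either MLC library or MesoT FCS replicate 2 (adjusted p = 0.0522 to 0.0991).

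Targets of YAP and TEAD, which answer to cell tension and density, fell in part. Of 18 tested, 2 rose and 7 fell, with a median of -0.76, so the share called, 50.0%, was close to the 48.9% over all genes. AXL, a receptor tyrosine kinase, had 117 and 122 CPM in MLC, against 679 and 671 CPM in MesoT FCS (log2 fold change -2.501 ± 0.19, adjusted p = 0.000488). ANKRD1, a nuclear cofactor and common reporter of YAP activity, had 8.43 and 4.09 CPM in MLC, against 359 and 18.4 CPM in MesoT FCS (log2 fold change -4.91 ± 1.44, adjusted p = 0.0334). The AXL libraries agreed within each group, whereas MesoT FCS replicate 1 stood far above replicate 2 for ANKRD1. CCN1, the other common reporter, had 314 and 259.8 CPM in MLC, against 734 and 541 CPM in MesoT FCS (log2 fold change -1.15 ± 0.68, adjusted p = 0.205) and did not pass the test. AMOTL1, an angiomotin that binds YAP, rose with 137 and 159.6 CPM in MLC, against 86.98 and 86.5 CPM in MesoT FCS (log2 fold change 0.77 ± 0.16, adjusted p = 0.0114), as did FOXF2, a forkhead factor of visceral mesoderm, with 2.52 and 3.53 CPM in MLC, against 0.0447 and 0 CPM in MesoT FCS (ratio 121 with a counting interval of 21.7 to 4802, adjusted p = 0.00204). The TEAD sequence GGAATG, on either strand, was in 7 of 14 promoters of the list, 50%, against 14% of all promoters. Of these 7 members, ANKRD1 and PTPN14 fell, FOXF2 rose, and CCN2, LATS2, NUAK2 and TGFB2 were not called. The 250 bases before the ANKRD1 start, chr10:90921088-90921337 on the minus strand, are shown as those of a member that fell. They hold GGAATG 220 and 128 bases before the start, in capitals.
ANKRD1: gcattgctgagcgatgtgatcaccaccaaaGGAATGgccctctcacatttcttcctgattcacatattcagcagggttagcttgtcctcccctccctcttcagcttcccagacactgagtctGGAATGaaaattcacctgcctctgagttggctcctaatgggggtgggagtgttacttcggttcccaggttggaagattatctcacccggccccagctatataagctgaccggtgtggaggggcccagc
AMOTL1 and FOXF2 overlap a gene on the opposite strand. YAP and TEAD targets that rose numbered 1, 1, 2 and 1, and those that fell 2, 2, 3 and 6, with each library left out. ANKRD1 missed the threshold without either MLC library or MesoT FCS replicate 1 (adjusted p = 0.124 to 0.171). AMOTL1 missed the threshold without any 1 of the 4 libraries (adjusted p = 0.0534 to 0.104). ANKRD1 missed the threshold in 1 of 10 other alternatives (adjusted p = 0.0835). Fits with a library less gave log2 fold changes of -1.56 for ANKRD1 without MesoT FCS replicate 1.

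Genes known to respond to BMP were higher in MLC. No BMP4 is listed for its medium after the mesoderm step, nor for the serum medium of MesoT FCS. What part the media had in this difference was not tested. Of 16 tested, 13 rose and 1 fell, with a median of 2.59. ID1, an inhibitor of helix-loop-helix factors and a direct SMAD1 and SMAD5 target, had 269 and 212 CPM in MLC, against 37.6 and 46.01 CPM in MesoT FCS (log2 fold change 2.53 ± 0.27, adjusted p = 0.00127). SMAD6, the feedback inhibitor of the pathway, had 301 and 256 CPM in MLC, against 16.1 and 13.5 CPM in MesoT FCS (log2 fold change 4.23 ± 0.52, adjusted p = 0.00186). SMAD9, a BMP-activated SMAD, had 103 and 109 CPM in MLC, against 6.52 and 8.71 CPM in MesoT FCS (log2 fold change 3.81 ± 0.21, adjusted p = 0.000216). MSX2, a homeobox factor downstream of BMP, had 187 and 187 CPM in MLC, against 3.08 and 5.08 CPM in MesoT FCS (log2 fold change 5.52 ± 0.47, adjusted p = 0.000637). In all 4 the MLC libraries were close together and well above MesoT FCS. HAND1, a helix-loop-helix factor of lateral mesoderm and extraembryonic tissue, had 319 and 358 CPM in MLC, against 0.0893 and 0.0558 CPM in MesoT FCS (ratio 4537 with a counting interval of 1553 to 22003, adjusted p = 0.000142). BAMBI, DLX5, GATA3, HEY1, ID2, ID3, ID4 and MSX1 rose too, and the other 2 members did not pass the test, apart from 1 that fell: BMPER, a secreted modulator of BMP, had 4.28 and 6.64 CPM in MLC, against 18.04 and 13.3 CPM in MesoT FCS (log2 fold change -1.52 ± 0.51, adjusted p = 0.0485). GATA3 overlaps a gene on the opposite strand. BMP response genes that fell numbered 0, 0, 0 and 0, with each library left out. BMPER missed the threshold without any 1 of the 4 libraries (adjusted p = 0.0838 to 0.223). BAMBI missed the threshold without either MLC library or MesoT FCS replicate 2 (adjusted p = 0.0739 to 0.135). DLX5 and ID3 missed the threshold without MLC replicate 1 (adjusted p = 0.0527 to 0.0574). BMPER missed the threshold in 2 of 10 other alternatives (adjusted p = 0.0504 to 0.0524). BAMBI missed the threshold in 1 of 10 other alternatives (adjusted p = 0.0515).

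Secreted antagonists of BMP and TGF-beta split into sets that moved in opposite directions: 4 rose and 5 fell of 12 tested, with a median of 1.39, or 0.32 when genes with 0 counts in a group take their bound. That median turned to -0.84 with a filter of 1 CPM and to -0.76 on the 4 libraries alone. It was -1.58 without genes that overlap the opposite strand or whose strand was not known. The fall of GREM1 is given above. CHRDL1, a chordin-like antagonist, had 0.0529 and 0.0427 CPM in MLC, against 4.87 and 25.3 CPM in MesoT FCS (log2 fold change -8.201 ± 2.11, adjusted p = 0.022). FST, follistatin, which binds activins, had 4.15 and 3.53 CPM in MLC, against 60.6 and 31.1 CPM in MesoT FCS (log2 fold change -3.58 ± 0.67, adjusted p = 0.00757). FSTL3 had 35.6 and 26.01 CPM in MLC, against 399 and 146 CPM in MesoT FCS (log2 fold change -3.14 ± 0.83, adjusted p = 0.0238). These libraries did not overlap between the groups. On the other side, CHRD, chordin, had 12.002 and 13.8 CPM in MLC, against 0.625 and 0.447 CPM in MesoT FCS (log2 fold change 4.57 ± 0.41, adjusted p = 0.00074). NOG, noggin, had 35.3 and 23.4 CPM in MLC, against 3.97 and 3.69 CPM in MesoT FCS (log2 fold change 2.94 ± 0.98, adjusted p = 0.0499). SOSTDC1 had 10.7 and 11.9 CPM in MLC, against 0.313 and 0.0558 CPM in MesoT FCS (log2 fold change 5.84 ± 1.04, adjusted p = 0.00649). SOST, sclerostin, had 2.11 and 1.48 CPM in MLC, against 0 CPM in both MesoT FCS libraries (at least 24.3-fold higher, adjusted p = 0.00822). The other 3 members did not pass the test. GREM1 overlaps a gene on the opposite strand. Antagonists that rose numbered 2, 3, 3 and 3, and those that fell 1, 1, 3 and 3, with each library left out. CHRDL1 missed the threshold without either MLC library or MesoT FCS replicate 2 (adjusted p = 0.0655 to 0.127). FST missed the threshold without either MLC library (adjusted p = 0.056 to 0.0654). FSTL3 missed the threshold without either MLC library or MesoT FCS replicate 1 (adjusted p = 0.0957 to 0.138). NOG missed the threshold without any 1 of the 4 libraries (adjusted p = 0.118 to 0.167). SOST missed the threshold without MLC replicate 1 (adjusted p = 0.056). CHRDL1 missed the threshold in 1 of 10 other alternatives (adjusted p = 0.107). NOG missed the threshold in 3 of 9 other alternatives (adjusted p = 0.0501 to 0.052).

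WNT response genes were mostly higher in MLC. WNT3A is likewise not listed for the MLC medium after the mesoderm step, nor for the serum medium of MesoT FCS. The part of the media was not tested here either. Of 15 tested, 11 rose and 3 fell, with a median of 4.59, or 3.97 when genes with 0 counts in a group take their bound. AXIN2, a negative regulator that beta-catenin induces in most tissues, had 54.5 and 59.04 CPM in MLC, against 2.099 and 2.62 CPM in MesoT FCS (log2 fold change 4.59 ± 0.21, adjusted p = 0.000172). LEF1, a beta-catenin partner on DNA, had 78.04 and 84.7 CPM in MLC, against 0.134 and 0.503 CPM in MesoT FCS (log2 fold change 8.05 ± 0.45, adjusted p = 0.000232). Among feedback inhibitors, RNF43, a ubiquitin ligase for frizzled receptors, had 76.4 and 71.5 CPM in MLC, against 1.697 and 1.12 CPM in MesoT FCS (log2 fold change 5.7005 ± 0.27, adjusted p = 0.000173). NKD1, naked cuticle, had 37.4 and 64.3 CPM in MLC, against 0.0893 and 0.223 CPM in MesoT FCS (log2 fold change 8.37 ± 0.64, adjusted p = 0.000483). All MLC libraries exceeded all MesoT FCS libraries in these genes. APCDD1, CDX2, NOTUM, SP5, TCF7, WNT11 and ZNRF3 rose too. DKK1, a secreted inhibitor of WNT that is itself a WNT target, fell, with 1.06 and 2.04 CPM in MLC, against 386 and 139 CPM in MesoT FCS (log2 fold change -7.41 ± 0.72, adjusted p = 0.000937). LGR5, a receptor for R-spondins, had 0.383 and 0.128 CPM in MLC, against 22.996 and 2.57 CPM in MesoT FCS (log2 fold change -5.62 ± 1.18, adjusted p = 0.0111). FZD7, a frizzled receptor, had 118 and 117 CPM in MLC, against 189 and 209 CPM in MesoT FCS (log2 fold change -0.76 ± 0.15, adjusted p = 0.01). TBXT was not tested. LEF1, RNF43 and TCF7 overlap a gene on the opposite strand. WNT response genes that fell numbered 1, 1, 3 and 3, with each library left out. LGR5 and FZD7 missed the threshold without either MLC library (adjusted p = 0.0535 to 0.0949). APCDD1 missed the threshold without MLC replicate 2 (adjusted p = 0.0671). CDX2 missed the threshold without either MLC library or MesoT FCS replicate 1 (adjusted p = 0.0507 to 0.071). Refitted log2 fold changes were -3.31 for LGR5 without MesoT FCS replicate 1.

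Genes of the retinoic acid response were in part higher in MLC, the group in retinoic acid at the time of harvest by its protocol. The part of retinoic acid itself was not tested. Of 17 tested, 7 rose and 1 fell, which is 47.1% called, close to the share over all genes, with a median of 1.73. CYP26A1, an enzyme that degrades retinoic acid and is induced by it, had 60.4 and 40.3 CPM in MLC, against 0.0447 and 0 CPM in MesoT FCS (ratio 2044 with a counting interval of 367 to 80759, adjusted p = 0.00256). CYP26B1, of the same kind, had 406 and 174 CPM in MLC, against 1.21 and 0.0558 CPM in MesoT FCS (log2 fold change 8.76 ± 1.15, adjusted p = 0.00237). Both were near 0 in MesoT FCS. RARB, a receptor induced by its own ligand, had 66.4 and 58.1 CPM in MLC, against 10.002 and 18.3 CPM in MesoT FCS (log2 fold change 2.14 ± 0.303, adjusted p = 0.00302). RXRG, a partner receptor, had 85.6 and 72.8 CPM in MLC, against 0 CPM in both MesoT FCS libraries (at least 1067-fold higher, adjusted p = 0.000171). The MLC libraries of CYP26B1 differed from each other by more than those of RARB and RXRG, and none overlapped MesoT FCS. CRABP1 and HOXB1 rose too. DHRS3, which reduces retinaldehyde, had 265 and 127 CPM in MLC, against 15.3 and 76.4 CPM in MesoT FCS (log2 fold change 2.0998 ± 0.77, adjusted p = 0.0661). CRABP2, a retinoic acid carrier, had 395 and 269.8 CPM in MLC, against 53.2 and 147 CPM in MesoT FCS (log2 fold change 1.73 ± 0.59, adjusted p = 0.0533). Neither passed the test, and their MesoT FCS libraries differed widely. TGM2, transglutaminase 2, ran the other way with 40.6 and 28.9 CPM in MLC, against 864 and 663 CPM in MesoT FCS (log2 fold change -4.46 ± 0.66, adjusted p = 0.00346). RARB overlaps a gene on the opposite strand. Retinoic acid response genes that rose numbered 7, 7, 7 and 11, with each library left out. DHRS3 and CRABP2 passed the threshold without MesoT FCS replicate 2 (adjusted p = 0.0147 to 0.0314). CYP26A1 missed the threshold in 1 of 10 other alternatives (adjusted p = 0.0518).

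Fibrillar and associated collagens were mostly lower in MLC: 1 rose and 8 fell of 14 tested, with a median of -1.45. The share called was 64.3%, beside 48.9% over all genes. COL1A1 (ENSG00000108821), the main chain of collagen I, had 5036 and 6112 CPM in MLC, against 26927 and 42666 CPM in MesoT FCS (log2 fold change -2.64 ± 0.73, adjusted p = 0.0277), and its partner COL1A2 1846 and 2842 CPM in MLC, against 9775 and 12070.4 CPM in MesoT FCS (log2 fold change -2.22 ± 0.52, adjusted p = 0.0161). COL3A1, collagen III, had 9426 and 10528 CPM in MLC, against 3999 and 5824 CPM in MesoT FCS (log2 fold change 1.02 ± 0.38, adjusted p = 0.0677), above MesoT FCS in both MLC libraries but not past the threshold. COL14A1, a collagen that decorates fibrils, rose with 62.98 and 119.6 CPM in MLC, against 0.6698 and 1.396 CPM in MesoT FCS (log2 fold change 6.49 ± 0.54, adjusted p = 0.000606). COL12A1, COL5A1, COL5A2, COL5A3, COL6A3 and COL8A1 fell too. Of basement membrane genes, 7 rose and 5 fell of 19 tested, 63.2% called, with a median of 0.33. FRAS1, which works with the FREM proteins to anchor embryonic epithelia, had 137 and 129.6 CPM in MLC, against 38.5 and 35.7 CPM in MesoT FCS (log2 fold change 1.84 ± 0.17, adjusted p = 0.000755). FREM1 had 44.9 and 93.3 CPM in MLC, against 2.099 and 0.447 CPM in MesoT FCS (log2 fold change 5.72 ± 0.97, adjusted p = 0.00551), while FREM3 was not tested. COL4A1, a chain of collagen IV, had 169.5 and 209 CPM in MLC, against 2947 and 1628 CPM in MesoT FCS (log2 fold change -3.597 ± 0.78, adjusted p = 0.0121). COL4A2 had 311 and 330.5 CPM in MLC, against 4329 and 2471 CPM in MesoT FCS (log2 fold change -3.41 ± 0.67, adjusted p = 0.0091). FREM2, LAMA1, LAMA3, LAMA5 and LAMC1 rose too, and LAMB1 and NID1 fell too, so laminin chains went both ways. COL5A1, FREM1, COL4A1, COL4A2, FREM2 and LAMA5 overlap a gene on the opposite strand. Fibrillar list collagens that fell numbered 2, 2, 6 and 2, with each library left out. Basement membrane genes that fell numbered 1, 0, 3 and 4, with each library left out. COL1A1, COL5A1 and NID1 missed the threshold without any 1 of the 4 libraries (adjusted p = 0.0559 to 0.186). COL1A2, COL12A1, COL5A2 and COL6A3 missed the threshold without either MLC library or MesoT FCS replicate 2 (adjusted p = 0.0595 to 0.213). COL4A1, COL4A2 and LAMB1 missed the threshold without either MLC library (adjusted p = 0.057 to 0.0885). LAMA5 missed the threshold without MLC replicate 1 (adjusted p = 0.0729). LAMC1 missed the threshold without MLC replicate 1 or MesoT FCS replicate 1 (adjusted p = 0.052 to 0.0744).

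No matrix metalloproteinase or inhibitor on its list rose in MLC, and 7 of 12 fell, with a median of -2.14. The share called was 58.3%, beside 48.9% over all genes. MMP1, an interstitial collagenase, had 4.92 and 1.68 CPM in MLC, against 111 and 304 CPM in MesoT FCS (log2 fold change -5.97 ± 0.87, adjusted p = 0.00337). MMP3, stromelysin, had 0 CPM in both MLC libraries, against 2.501 and 36.9 CPM in MesoT FCS (at least 865-fold lower, adjusted p = 0.0123). Both enzymes were higher in MesoT FCS replicate 2 than in replicate 1. TIMP1, a tissue inhibitor of these enzymes, had 40.1 and 39.7 CPM in MLC, against 236 and 314 CPM in MesoT FCS (log2 fold change -2.79 ± 0.55, adjusted p = 0.00892). TIMP2 had 72.6 and 93.1 CPM in MLC, against 1029 and 1882 CPM in MesoT FCS (log2 fold change -4.14 ± 0.54, adjusted p = 0.00236). MMP10, a second stromelysin, had 0.0264 and 0.0997 CPM in MLC, against 0.759 and 5.92 CPM in MesoT FCS (log2 fold change -5.66 ± 1.64, adjusted p = 0.0322). MMP16 and MMP24 fell too, and the other 5 members did not pass the test. The AP-1 sequence TGANTCA, on either strand, was in 1 of 6 promoters of the list, 16.7%, against 7.76% of all promoters. It lies 67 bases before the MMP10 start, in capitals below, within chr11:102780629-102780878 on the minus strand.
MMP10: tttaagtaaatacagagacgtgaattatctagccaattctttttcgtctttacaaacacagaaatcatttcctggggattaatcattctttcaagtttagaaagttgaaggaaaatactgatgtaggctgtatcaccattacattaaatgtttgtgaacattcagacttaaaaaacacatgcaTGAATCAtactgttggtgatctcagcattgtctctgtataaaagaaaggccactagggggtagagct
FOSL1, a subunit of AP-1, had 1.07 and 0.427 CPM in MLC, against 98.1 and 86.9 CPM in MesoT FCS (log2 fold change -6.94 ± 1.17, adjusted p = 0.00532). TIMP1 and MMP24 overlap a gene on the opposite strand. Metalloproteinases and inhibitors that rose numbered 0, 0, 1 and 0, and those that fell 3, 3, 7 and 6, with each library left out. MMP3 and TIMP1 missed the threshold without either MLC library (adjusted p = 0.0574 to 0.0706). MMP10 missed the threshold without either MLC library or MesoT FCS replicate 2 (adjusted p = 0.123 to 0.165). FOSL1 and MMP24 missed the threshold without MLC replicate 2 (adjusted p = 0.0517 to 0.059). MMP16 missed the threshold without MLC replicate 1 (adjusted p = 0.0887). MMP10 missed the threshold in 1 of 10 other alternatives (adjusted p = 0.0501). Leaving out a library gave log2 fold changes of -3.54 for MMP10 without MesoT FCS replicate 2.

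General mesenchymal and fibroblast markers were mixed: 3 rose and 11 fell of 20 tested, with a median of -2.03. FN1, fibronectin, had 1526 and 1911 CPM in MLC, against 30697 and 22478 CPM in MesoT FCS (log2 fold change -3.95 ± 0.72, adjusted p = 0.00708). NT5E, the CD73 surface enzyme of stromal cells, had 0.198 and 0.0712 CPM in MLC, against 163 and 199 CPM in MesoT FCS (log2 fold change -10.34 ± 0.62, adjusted p = 0.000255). CDH2, N-cadherin, had 56.3 and 42.9 CPM in MLC, against 644 and 604 CPM in MesoT FCS (log2 fold change -3.65 ± 0.59, adjusted p = 0.00454). Each was far lower in both MLC libraries. VIM (ENSG00000026025), the vimentin filament protein, had 2395 and 2621 CPM in MLC, against 3335 and 2499 CPM in MesoT FCS (log2 fold change -0.22 ± 0.31, adjusted p = 0.576), and its libraries overlapped. Among small proteoglycans of fibroblasts, DCN, decorin, had 801 and 944 CPM in MLC, against 139 and 98.2 CPM in MesoT FCS (log2 fold change 2.88 ± 0.25, adjusted p = 0.000687). LUM, lumican, had 525 and 556 CPM in MLC, against 89.8 and 95.3 CPM in MesoT FCS (log2 fold change 2.55 ± 0.38, adjusted p = 0.00344). CD44, ENG, FAP, FBLN5, LOX, PDGFRB, THY1 and TNC fell too, MEOX1 rose, and the other 5 members did not pass the test. Caveola and stromal surface genes were lower in MLC, with 0 higher and 11 lower of 14 tested and a median of -2.89. CAV1, the coat protein of caveolae, had 2.75 and 2.11 CPM in MLC, against 357 and 579 CPM in MesoT FCS (log2 fold change -7.59 ± 0.37, adjusted p = 0.000179). CAVIN1, its partner, had 81.97 and 62.3 CPM in MLC, against 2028 and 1791 CPM in MesoT FCS (log2 fold change -4.73 ± 0.75, adjusted p = 0.00438). FN1, CDH2, VIM, ENG, LOX and TNC overlap a gene on the opposite strand. Mesenchymal markers that fell numbered 7, 8, 11 and 10, with each library left out. Caveola and stromal genes that fell numbered 9, 7, 11 and 12, with each library left out. FN1, MEOX1 and LOX missed the threshold without either MLC library (adjusted p = 0.054 to 0.0712). FBLN5 missed the threshold without any 1 of the 4 libraries (adjusted p = 0.0734 to 0.186). PDGFRB missed the threshold without MLC replicate 1 (adjusted p = 0.0553).

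Of 24 cell cycle genes tested, 1 rose and 5 fell, 25.0% called beside 48.9% over all genes, with a median of 0.06. Fitted on the 4 libraries alone, 8 rose and 6 fell. MKI67, a marker of cycling cells, had 314 and 321 CPM in MLC, against 216 and 251 CPM in MesoT FCS (log2 fold change 0.45 ± 0.301, adjusted p = 0.257). PLK1, a kinase of mitosis, had 60.9 and 56.4 CPM in MLC, against 157 and 139 CPM in MesoT FCS (log2 fold change -1.34 ± 0.22, adjusted p = 0.00466). CDC20, an activator of the anaphase-promoting complex, had 63.8 and 57.7 CPM in MLC, against 189 and 167 CPM in MesoT FCS (log2 fold change -1.55 ± 0.32, adjusted p = 0.0102). Both were lower in each MLC library than in either MesoT FCS library. CDK1, the mitotic kinase, was higher with 104 and 103 CPM in MLC, against 42.5 and 56.7 CPM in MesoT FCS (log2 fold change 1.06 ± 0.28, adjusted p = 0.0236). Among inhibitors of the cycle, 1 rose and 5 fell of 8. CDKN2A, which encodes p16 and ARF and rises with passage in many cells, had 19.3 and 14.1 CPM in MLC, against 151 and 81.5 CPM in MesoT FCS (log2 fold change -2.803 ± 0.43, adjusted p = 0.00396), and its neighbour CDKN2B 18.9 and 6.37 CPM in MLC, against 216 and 88.2 CPM in MesoT FCS (log2 fold change -3.59 ± 0.97, adjusted p = 0.0257). CDKN1C, an imprinted inhibitor, rose with 74.9 and 102 CPM in MLC, against 20.9 and 14.5 CPM in MesoT FCS (log2 fold change 2.32 ± 0.26, adjusted p = 0.00142). The libraries of these inhibitors did not overlap between the groups. CDKN2C, CDKN2D and GADD45A fell too, and the other 2 members did not pass the test. CDKN2A and CDKN2B overlap a gene on the opposite strand. Cell cycle genes that rose numbered 0, 0, 0 and 1, and those that fell 1, 0, 2 and 2, with each library left out. Cell cycle inhibitors that fell numbered 2, 2, 3 and 4, with each library left out. PLK1 missed the threshold without MLC replicate 2 (adjusted p = 0.0525). CDC20 and CDKN2D missed the threshold without either MLC library (adjusted p = 0.0646 to 0.0813). CDK1 and CDKN2B missed the threshold without either MLC library or MesoT FCS replicate 1 (adjusted p = 0.0652 to 0.134). GADD45A missed the threshold without any 1 of the 4 libraries (adjusted p = 0.0508 to 0.167).

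Genes of glycolysis and hypoxia were lower in MLC, with 2 higher and 12 lower of 20 tested and a median of -1.41. ENO1, enolase, had 536 and 529 CPM in MLC, against 2792 and 2771 CPM in MesoT FCS (log2 fold change -2.39 ± 0.23, adjusted p = 0.000971). LDHA, which makes lactate, had 166 and 219 CPM in MLC, against 1191 and 1211 CPM in MesoT FCS (log2 fold change -2.64 ± 0.29, adjusted p = 0.00131). ALDOA, aldolase, had 236 and 259.9 CPM in MLC, against 1724 and 1672 CPM in MesoT FCS (log2 fold change -2.78 ± 0.34, adjusted p = 0.00188). PFKP, a phosphofructokinase, had 37.2 and 36.8 CPM in MLC, against 843 and 639.96 CPM in MesoT FCS (log2 fold change -4.33 ± 0.599, adjusted p = 0.00284). Replicates agreed closely for these enzymes. GAPDH, which is often used as a reference gene, had 1656 and 1696 CPM in MLC, against 5317 and 5465 CPM in MesoT FCS (log2 fold change -1.69 ± 0.23, adjusted p = 0.00281). Glycolytic genes have many processed copies that reads may be split with. SLC2A3, a glucose transporter, rose, with 132 and 225 CPM in MLC, against 77.2 and 55.5 CPM in MesoT FCS (log2 fold change 1.43 ± 0.46, adjusted p = 0.0442). Of 20 cholesterol synthesis genes, 3 rose and 1 fell, 20.0% called, with a median of 0.14 that became -0.005 without MLC replicate 2 and -0.0784 without MesoT FCS replicate 2. HMGCS1, an early enzyme, had 268 and 399 CPM in MLC, against 125 and 72.6 CPM in MesoT FCS (log2 fold change 1.76 ± 0.34, adjusted p = 0.00822). Of 13 mitochondrially encoded mRNA genes, 10 rose and 1 fell. MT-CO1, a subunit of cytochrome c oxidase, had 14107 and 16839 CPM in MLC, against 6663 and 5122 CPM in MesoT FCS (log2 fold change 1.39 ± 0.31, adjusted p = 0.0134). The gene that fell was MT-ND6, with 195 and 204 CPM in MLC, against 1255 and 888 CPM in MesoT FCS (log2 fold change -2.42 ± 0.27, adjusted p = 0.00136), and it is the member encoded on the opposite strand, where the tRNA genes named above also had fewer counts in MLC. Glycolysis genes that rose numbered 0, 0, 0 and 0, with each library left out. Cholesterol genes that rose numbered 2, 0, 5 and 2, and those that fell 1, 0, 1 and 1, with each library left out. Mitochondrial genes that rose numbered 2, 1, 7 and 2, with each library left out. SLC2A3 missed the threshold without any 1 of the 4 libraries (adjusted p = 0.0699 to 0.223). HMGCS1 missed the threshold without MLC replicate 2 (adjusted p = 0.0579). MT-CO1 missed the threshold without either MLC library or MesoT FCS replicate 2 (adjusted p = 0.0652 to 0.1). SLC2A3 missed the threshold in 1 of 9 other alternatives (adjusted p = 0.0514).

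Of 14 imprinted genes tested, 5 rose and 2 fell, 50.0% called and close to the 48.9% over all genes, with a median of 1.12. IGF2, the fetal growth factor, had 5119 and 4824 CPM in MLC, against 467 and 28.6 CPM in MesoT FCS (log2 fold change 4.33 ± 1.21, adjusted p = 0.029). DLK1, a secreted relative of Notch ligands, had 335 and 599 CPM in MLC, against 0.893 and 9.88 CPM in MesoT FCS (log2 fold change 6.45 ± 1.49, adjusted p = 0.0153). PEG10 rose with 672 and 929.6 CPM in MLC, against 145 and 216 CPM in MesoT FCS (log2 fold change 2.15 ± 0.72, adjusted p = 0.0495). PHLDA2, a placental growth restrictor, fell with 0.317 and 0.114 CPM in MLC, against 94.7 and 68.2 CPM in MesoT FCS (log2 fold change -8.53 ± 1.03, adjusted p = 0.00183). MesoT FCS replicate 1 was far above replicate 2 for IGF2 and far below it for DLK1. H19, the RNA next to IGF2, had 2.56 and 2.04 CPM in MLC, against 0.0893 and 0 CPM in MesoT FCS (adjusted p = 0.291). Its MesoT day 18 libraries differed greatly, with 7072 and 3.11 CPM. Immediate early genes, which respond to stimulation within minutes, had 1 higher and 2 lower of 16, 18.8% called. FOS had 282 and 302 CPM in MLC, against 11.5 and 233 CPM in MesoT FCS (log2 fold change 1.25 ± 1.21, adjusted p = 0.418), its MesoT FCS libraries far apart. Interferon response genes had 2 higher and 2 lower of 20, 20.0% called. ISG15, a ubiquitin-like protein, had 11.5 and 10.2 CPM in MLC, against 62.2 and 87.1 CPM in MesoT FCS (log2 fold change -2.78 ± 0.47, adjusted p = 0.00537). IRF9 had 12.3 and 13.9 CPM in MLC, against 0.982 and 2.12 CPM in MesoT FCS (log2 fold change 3.09 ± 0.44, adjusted p = 0.00308). Imprinted genes that rose numbered 2, 1, 3 and 4, and those that fell 1, 1, 1 and 1, with each library left out. Interferon response genes that rose numbered 1, 1, 2 and 3, and those that fell 1, 0, 4 and 1, with each library left out. Immediate early genes that rose numbered 0, 0, 0 and 1, and those that fell 2, 0, 3 and 2, with each library left out. IGF2 missed the threshold without either MLC library (adjusted p = 0.0892 to 0.0906). DLK1 and ISG15 missed the threshold without MLC replicate 2 (adjusted p = 0.0524 to 0.0633). PEG10 missed the threshold without any 1 of the 4 libraries (adjusted p = 0.112 to 0.195). FOS passed the threshold without MesoT FCS replicate 2 (adjusted p = 0.0169). PEG10 missed the threshold in 3 of 9 other alternatives (adjusted p = 0.0521 to 0.0552). Fits with a library less gave log2 fold changes of 7.44 for IGF2 without MesoT FCS replicate 1.

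HOX genes were called in both directions. Of anterior and middle HOX genes, 4 rose and 0 fell of 16 tested, 25.0% called, with a median of 0.61, and of posterior HOX genes 1 rose and 9 fell of 21, 47.6% called, with a median of -2.42. Neither share exceeded the 48.9% over all genes, and the difference between these lists was not tested. The posterior list also holds HOXA6, HOXA7, HOXB7, HOXB8, HOXC8 and HOXD8, which lie in the middle of the clusters. By number in the cluster, 4 rose and 0 fell of 14 tested in groups 1 to 5, 0 rose and 3 fell of 8 in groups 6 to 8, and 1 rose and 6 fell of 15 in groups 9 to 13, a split made after seeing the data. HOXB1, a hindbrain-level gene that retinoic acid induces, had 5.697 and 2.78 CPM in MLC, against 0 CPM in both MesoT FCS libraries (at least 57.7-fold higher, adjusted p = 0.00451). HOXB9 had 6.98 and 8.65 CPM in MLC, against 58.99 and 72.1 CPM in MesoT FCS (log2 fold change -3.07 ± 0.31, adjusted p = 0.00108). HOXA7 had 1.92 and 2.72 CPM in MLC, against 15.6 and 21.9 CPM in MesoT FCS (log2 fold change -3.02 ± 0.36, adjusted p = 0.00181). HOXA10 had 1.52 and 4.17 CPM in MLC, against 35.3 and 7.82 CPM in MesoT FCS (log2 fold change -2.92 ± 0.85, adjusted p = 0.0323). MLC lay below MesoT FCS in every library for HOXB9, HOXA7 and HOXA10. HOXC13 was the member of the posterior list that was higher, with 0.859 and 1.097 CPM in MLC, against 0 CPM in both MesoT FCS libraries (at least 13.1-fold higher, adjusted p = 0.0325). Factors of the heart and lateral mesoderm were higher in MLC more often than lower, 9 against 3 of 22, 54.5% called, with a median of 1.68. GATA5, a zinc finger factor of heart and mesothelium, had 159 and 144 CPM in MLC, against 0.625 and 0.0558 CPM in MesoT FCS (log2 fold change 8.69 ± 0.65, adjusted p = 0.000474). TBX5, a T-box factor, had 101 and 87.6 CPM in MLC, against 4.73 and 5.53 CPM in MesoT FCS (log2 fold change 4.202 ± 0.41, adjusted p = 0.000964). GATA4 had 372 and 282 CPM in MLC, against 30.9 and 0.0558 CPM in MesoT FCS (log2 fold change 4.39 ± 1.66, adjusted p = 0.0706), with MesoT FCS libraries far apart, and did not pass the test. FOXF1, a factor of gut and lung mesenchyme, fell with 3.48 and 3.48 CPM in MLC, against 21.3 and 85.2 CPM in MesoT FCS (log2 fold change -3.93 ± 1.03, adjusted p = 0.0235). NR2F1 fell too. TBX1, a T-box factor, had 0 CPM in both MLC libraries, against 0 and 4.803 CPM in MesoT FCS (at least 104-fold lower, adjusted p = 0.048), so its call rests on MesoT FCS replicate 2. HOX genes share exons and antisense partners within their clusters, and HOXA6, HOXA7, HOXD8, TBX5, NR2F1 and TBX1 overlap a gene on the opposite strand. Anterior HOX genes that rose numbered 2, 2, 2 and 7, with each library left out. Posterior HOX genes that rose numbered 0, 0, 1 and 1, and those that fell 3, 4, 4 and 9, with each library left out. Lateral mesoderm factors that fell numbered 0, 0, 3 and 2, with each library left out. HOXA10 missed the threshold without either MLC library or MesoT FCS replicate 1 (adjusted p = 0.0721 to 0.158). HOXC13 missed the threshold without any 1 of the 4 libraries (adjusted p = 0.0838 to 0.102). FOXF1 and TBX1 missed the threshold without either MLC library or MesoT FCS replicate 2 (adjusted p = 0.0941 to 1). NR2F1 missed the threshold without either MLC library (adjusted p = 0.0712 to 0.0714). GATA4 passed the threshold without either MesoT FCS library (adjusted p = 0.00165 to 0.00532). TBX1 missed the threshold in 2 of 7 other alternatives (adjusted p = 0.073 to 0.178). Refitted log2 fold changes were -1.46 for HOXA10 without MesoT FCS replicate 1 and -2.62 for FOXF1 without MesoT FCS replicate 2.

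Markers of amnion and surface ectoderm were higher in MLC: 13 rose and 0 fell of 17 tested, with a median of 5.74, or 4.37 when genes with 0 counts in a group take their bound. GABRP, VTCN1 and HAND1, described above, are in this list. TFAP2B, an AP-2 factor of ectoderm, had 38.6 and 50.1 CPM in MLC, against 0 CPM in both MesoT FCS libraries (at least 593-fold higher, adjusted p = 0.000259). TP63, the p63 factor of stratified epithelium, had 7.204 and 9.002 CPM in MLC, against 0.0447 and 0 CPM in MesoT FCS (ratio 325 with a counting interval of 58.3 to 12856, adjusted p = 0.000342). ITGB6, an epithelial integrin, had 44.4 and 34.3 CPM in MLC, against 0.134 and 0.223 CPM in MesoT FCS (log2 fold change 7.79 ± 0.34, adjusted p = 0.000171). ADCYAP1, DLX5, GABRP, GATA3, HAND1, ISL1, MUC16, TFAP2C, VTCN1 and WNT6 rose too, and the other 4 tested members did not pass the test. The list summed to 2276 and 2451 CPM in MLC, against 809 and 422 CPM in MesoT FCS. The part of cells with such markers in the differences of junction genes was not tested. ADCYAP1 and GATA3 overlap a gene on the opposite strand. DLX5 missed the threshold without MLC replicate 1 (adjusted p = 0.0574). ISL1 missed the threshold without any 1 of the 4 libraries (adjusted p = 0.0884 to 0.201). MUC16 missed the threshold without MLC replicate 2 (adjusted p = 0.0588). TFAP2C missed the threshold without either MLC library (adjusted p = 0.116 to 0.147). ISL1 missed the threshold in 5 of 10 other alternatives (adjusted p = 0.0517 to 0.123).

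Hepatocyte markers were present at low levels in MLC, where all 12 tested members were higher, beside 22.6% over all genes. They summed to 154 and 69.5 CPM in MLC, against 0.982 and 0.391 CPM in MesoT FCS, where 8 members (ALB, APOB, APOA2, APOA4, TTR, FGB, FGA and HNF4A) were at 0 counts. AFP, fetal alpha-fetoprotein, had 84.6 and 34.2 CPM in MLC, against 0.0447 and 0.223 CPM in MesoT FCS (log2 fold change 8.85 ± 0.99, adjusted p = 0.00143). APOB, an apolipoprotein, had 14.99 and 8.23 CPM in MLC, against 0 CPM in both MesoT FCS libraries (at least 158-fold higher, adjusted p = 0.00149). MLC replicate 1 stood above replicate 2 in both. Gut epithelium markers behaved alike, with 7 higher and 0 lower of 10 and sums of 57.8 and 34.95 CPM in MLC, against 6.88 and 7.71 CPM in MesoT FCS. In MesoT FCS 6 of the gut members were at 0 counts. A member at 0 counts in MesoT FCS could be called in no other direction. The counts of members higher are therefore no support beyond the levels given. FABP1, a fatty acid carrier, had 16.3 and 9.98 CPM in MLC, against 0 CPM in both MesoT FCS libraries (at least 178-fold higher, adjusted p = 0.00212). Both sums were far below that of junction genes in MLC, 2895 and 2761 CPM. Of cardiomyocyte markers 5 rose and 2 fell of 10, 70% called beside 48.9% over all genes. They summed to 195 and 184 CPM in MLC, against 206 and 6.14 CPM in MesoT FCS. The 2 that fell were NPPA (log2 fold change -4.97) and NPPB (log2 fold change -5.08). Without MesoT FCS replicate 1 the log2 fold change of NPPB was -0.82. Opposite-strand overlap is not given here for these 2. RYR2, the calcium release channel, had 37.01 and 38.9 CPM in MLC, against 0 and 0.112 CPM in MesoT FCS (ratio 764 with a counting interval of 211 to 6312, adjusted p = 0.00067). MYH6, MYH7 and MYL2, which define the cell type, were too low to be tested. Pluripotency genes held 5 higher and 0 lower of 11, 45.5% called. They summed to 261 and 283 CPM in MLC, against 31.6 and 36.6 CPM in MesoT FCS. DPPA4, L1TD1, TDGF1 and ZFP42 rose, TDGF1 from 0 counts in MesoT FCS, and so did LIN28B. LIN28B, an RNA-binding protein also of fetal tissues, had 65.3 and 71.4 CPM in MLC, against 2.72 and 2.904 CPM in MesoT FCS (log2 fold change 4.602 ± 0.23, adjusted p = 0.000188). POU5F1, NANOG and SOX2, the factors that define the state, reached at most 0.145 CPM in any MLC or MesoT FCS library. At day 18, POU5F1 had 4.35 and 5.33 CPM. The part of cells of these types in other differences was not tested. HNF4A and LIN28B overlap a gene on the opposite strand. Hepatocyte markers that rose numbered 4, 7, 10 and 9, with each library left out. Cardiomyocyte markers that rose numbered 2, 1, 7 and 5, and those that fell 1, 0, 1 and 2, with each library left out.

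Endothelial markers were called in both directions, with 1 higher and 3 lower of 13 tested, 30.8% called. The 3 that fell were ERG (log2 fold change -4.63), TIE1 (log2 fold change -5.06) and EGFL7 (log2 fold change -2.52). Opposite-strand overlap is not given here for these 3. KDR, a VEGF receptor also found on mesoderm and mesothelium, had 115 and 156 CPM in MLC, against 7.41 and 0.168 CPM in MesoT FCS (log2 fold change 5.13 ± 1.34, adjusted p = 0.0231), but CDH5 and CLDN5, which define endothelium, stayed under 1 CPM in every MLC and MesoT FCS library. CDH5 had 2.64 and 4.92 CPM at day 18. Pericyte markers held 0 higher and 4 lower of 10, 40.0% called. CSPG4, the NG2 proteoglycan, had 22.02 and 32.3 CPM in MLC, against 449 and 142 CPM in MesoT FCS (log2 fold change -3.44 ± 0.57, adjusted p = 0.00513). MCAM had 15.9 and 22.2 CPM in MLC, against 388 and 177 CPM in MesoT FCS (log2 fold change -3.89 ± 0.47, adjusted p = 0.00182). Both are also surface proteins of cultured stromal cells. Neural markers had 2 higher and 4 lower of 8. DCX, a microtubule protein of migrating neurons, had 128 and 106 CPM in MLC, against 0.179 and 0 CPM in MesoT FCS (log2 fold change 10.17 ± 1.55, adjusted p = 0.00385). STMN2, a stathmin, had 0.634 and 0.983 CPM in MLC, against 212 and 109.7 CPM in MesoT FCS (log2 fold change -7.63 ± 0.84, adjusted p = 0.00135). SOX1, SOX10, NEUROD1 and ELAVL4 were not tested. Of blood and immune markers 14 were listed and 6 tested, since PTPRC, SPI1, CD14 and the globins other than HBE1 were too low. RUNX1, a blood factor found in stroma as well, fell with 13.2 and 16.3 CPM in MLC, against 92.3 and 106 CPM in MesoT FCS (log2 fold change -2.75 ± 0.304, adjusted p = 0.00137). Endothelial markers that rose numbered 0, 0, 2 and 1, and those that fell 2, 2, 3 and 5, with each library left out. Pericyte markers that fell numbered 2, 2, 3 and 3, with each library left out. Neural markers that rose numbered 1, 1, 3 and 1, and those that fell 2, 2, 4 and 3, with each library left out. RUNX1 overlaps a gene on the opposite strand. KDR missed the threshold without either MLC library (adjusted p = 0.073 to 0.0894). Refitted log2 fold changes were 9.63 for KDR without MesoT FCS replicate 1.

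The plot of extremes gives, with MesoT day 18, the genes of the 12 highest and of the 12 lowest log2 fold changes at a log2 mean CPM of at least 3. All 24 lay between MLC and MesoT FCS at day 18 by their means. These genes were picked as extremes with 1 group at or near 0, and day 18 could hardly lie lower. The count is therefore no result about them. Over all called genes it was 4061 of the 5202 higher in MLC and 3813 of the 6070 lower. On the high side, besides GABRP, VTCN1, GRHL2, RXRG and TFAP2B, stood AMHR2, the receptor of anti-Müllerian hormone, which is expressed in coelomic epithelium, with 47.1 and 41.4 CPM in MLC, against 0 CPM in both MesoT FCS libraries (at least 596-fold higher, adjusted p = 0.000211) and 11.9 and 10.2 CPM at day 18. CA2, a carbonic anhydrase, had 26.6 and 26.6 CPM in MLC, against 0 CPM in both MesoT FCS libraries (at least 357-fold higher, adjusted p = 0.000243) and 4.58 and 3.76 CPM at day 18. COL6A6, a collagen VI chain, had 235 and 262 CPM in MLC, against 0.0447 and 0 CPM in MesoT FCS (ratio 10004 with a counting interval of 1795 to 395152, adjusted p = 0.000382). SYT10, TECRL, SPRR2F and SLC5A9 were between 26.4 and 72.5 CPM in MLC libraries and at 0 counts in both MesoT FCS libraries. On the low side, APCDD1L, a relative of the WNT inhibitor APCDD1, had 0.0132 and 0.0142 CPM in MLC, against 98.6 and 136 CPM in MesoT FCS (ratio 0.000119 with a counting interval of 0.0000144 to 0.0004301, adjusted p = 0.000142) and 0.258 and 0.137 CPM at day 18. FGF5, a growth factor, had 0.0132 and 0 CPM in MLC, against 46.1 and 15.7 CPM in MesoT FCS (ratio 0.0002104 with a counting interval of 0.00000532 to 0.00117, adjusted p = 0.00187). MSC, musculin, had 0 CPM in both MLC libraries, against 26.7 and 6.76 CPM in MesoT FCS (at least 867-fold lower, adjusted p = 0.00229). SRGN, the serglycin core protein, had 0.0132 and 0 CPM in MLC, against 45.3 and 4.91 CPM in MesoT FCS (ratio 0.000251 with a counting interval of 0.00000634 to 0.001399, adjusted p = 0.00342). SUCNR1, a succinate receptor, had 0.0132 and 0 CPM in MLC, against 6.296 and 103 CPM in MesoT FCS (ratio 0.000139 with a counting interval of 0.00000351 to 0.000773, adjusted p = 0.00444), with MesoT FCS replicate 2 far above replicate 1. TRBC2, MARCHF4, KRT81, LRRC15, MMP3, ACTG2 and COL8A1 completed the set. SPRR2F, TRBC2 and KRT81 have near-identical relatives and are uncertain. MARCHF4 overlaps a gene on the opposite strand. SUCNR1 missed the threshold in 1 of 10 other alternatives (adjusted p = 0.0748).

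**Figure D4:**
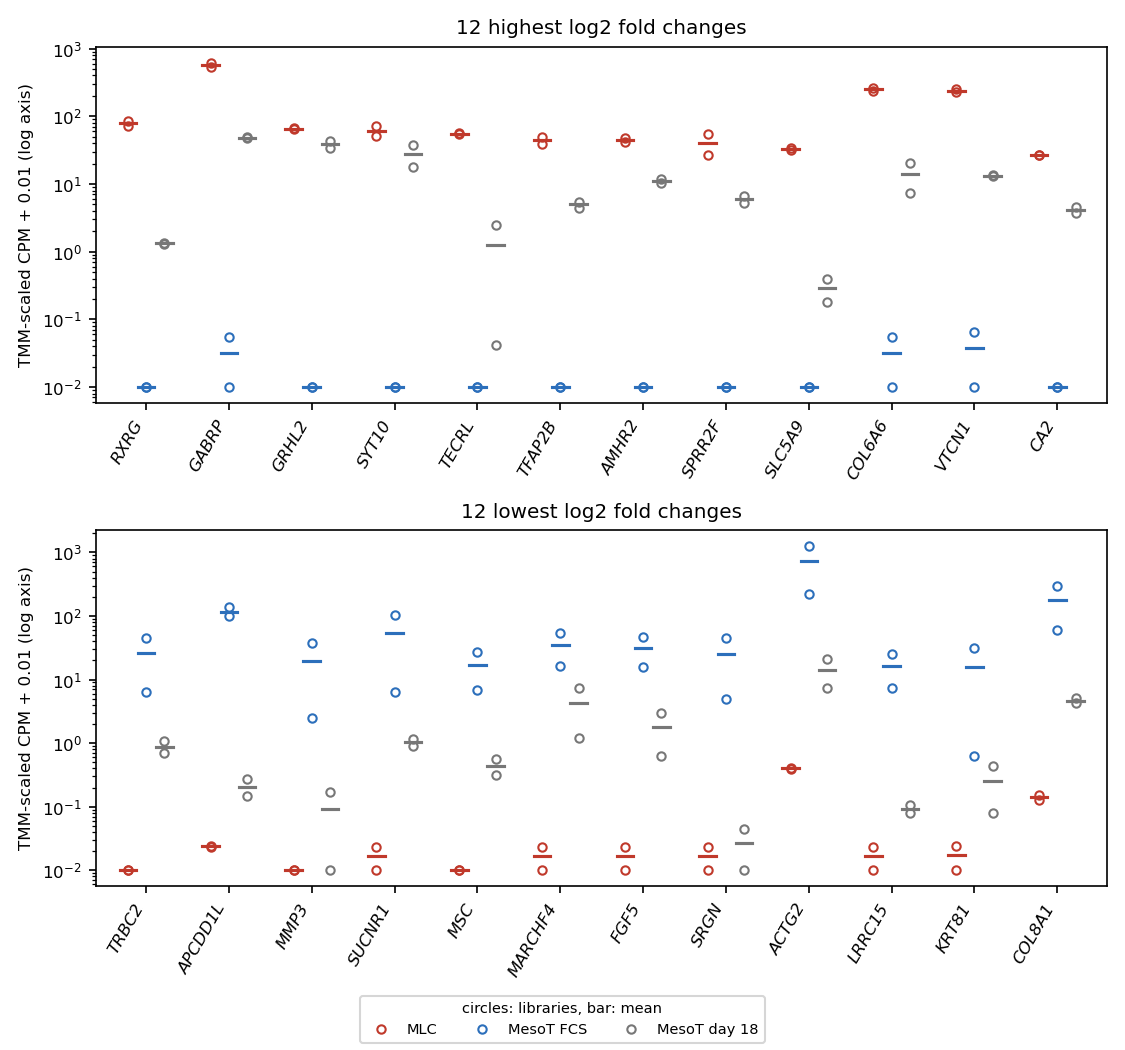
The y axis is TMM-scaled CPM plus 0.01 on a log scale for the genes of the 12 highest (upper panel) and the 12 lowest (lower panel) fold changes; circles are libraries and bars means of MLC (red), MesoT FCS (blue) and MesoT day 18 (grey). Every grey bar lies between the red and the blue bar, and points at 0.01 are libraries with 0 counts.

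The genes that took the most counts also differed. In MLC the 6 highest by mean CPM, mitochondrial genes apart, were COL3A1, EEF1A1, COL1A1, IGF2, ACTB and ACTG1, and in MesoT FCS they were COL1A1, FN1, ACTG1, COL1A2, ACTB and TGFBI. ACTB, a cytoplasmic actin, had 3995 and 3511 CPM in MLC, against 13008 and 8420.3 CPM in MesoT FCS (log2 fold change -1.51 ± 0.37, adjusted p = 0.019). ACTG1, the other one, had 3782 and 3285 CPM in MLC, against 11989.6 and 13363 CPM in MesoT FCS (log2 fold change -1.84 ± 0.29, adjusted p = 0.00413). EEF1A1, a translation factor, had 5905 and 5471 CPM in MLC, against 5048 and 5726 CPM in MesoT FCS (log2 fold change 0.08 ± 0.25, adjusted p = 0.811). The EEF1A1 libraries overlapped between the groups and those of both actins did not. FN1 overlaps a gene on the opposite strand. ACTB missed the threshold without either MLC library or MesoT FCS replicate 1 (adjusted p = 0.0858 to 0.136). ACTG1 missed the threshold without MLC replicate 2 (adjusted p = 0.0594).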

How the data were processed

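RNA of the 7 human libraries with a count file each was used: MLC (2), MesoT FCS (2), MesoT day 18 (2) and smooth muscle (1). The values are raw counts per Ensembl gene as deposited by the authors. The submitters' processing notes name TopHat2 2.0.13, Bowtie2 2.2.9, Subread 1.4.2, featureCounts and the build hg19, without their roles. No source used here gives the strand setting, the annotation release or the platform of each sample, so a batch could not be set beside the groups. The 63677 gene IDs were matched to symbols through a RefSeq-based table, and 52181 had one.

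The counts were fitted with edgeR 4.0.16 in R 4.3.3 by the quasi-likelihood F test, with TMM scaling, the filterByExpr filter and group means over all 7 libraries, which leaves 3 residual degrees of freedom. Adjusted p-values are Benjamini-Hochberg values over all 23049 genes tested. The standard error is the log2 fold change divided by the root of F. CPM were computed from the counts and TMM-scaled library sizes, and depth limits them: 3 counts was used as the floor over a group at 0, and intervals and floors cover counting error only. The script was tested on simulated counts. Figures were drawn with matplotlib 3.10.9.

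The members and the 36 gene lists (555 genes) were chosen with earlier results of these data known. Genes named are the 5 markers of the contrast and 9 always named, the 12 highest and 12 lowest log2 fold changes with a log2 mean CPM of at least 3, the 6 smallest p of each list, the 6 highest by CPM in each group, and further list members. A gene whose only symbol was an Ensembl ID was left out of the 12 lowest after its values were seen, and the promoters shown were chosen likewise. The symbols RARRES3 and DDX58 were looked up as PLAAT4 and RIGI. The log2 fold change with 1 library left out is given for called genes with a printed log2 fold change where it moved by over 1.5 times. In all, 14 alternatives were chosen at the outset and 1 after seeing the data, with DESeq2 1.42.0 and limma 3.58.1 among them. A few list members and genes the rule names are counted but not reported here. A repeat motif set for the retinoic acid list had the wrong spacing and is not used here. Tables that hold several samples, the mouse libraries and ChIP-seq were not used here.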

Additional observations from a re-analysis of the deposited data

How the results depend on the processing

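The 11272 genes called became 10141 to 13182 under the 10 alternatives that keep every MLC and MesoT FCS library and the genes that overlap the opposite strand (the highest on the 4 libraries alone, with 6886 higher and 6296 lower), and 4962 to 8507 with 1 library left out (2132 to 3648 higher and 2830.0 to 4859 lower). Without genes that overlap the opposite strand or whose strand was not known they were 3590.0, 1872 higher and 1718 lower, with only 8088 genes tested. Of 290 named genes called, 107 missed the threshold without MLC replicate 1, 117 without MLC replicate 2, 43 without MesoT FCS replicate 1 and 44 without MesoT FCS replicate 2. By limma voom 13 missed it, by DESeq2 1, thinned 8 and under each other alternative at most 7. In the setting without opposite-strand overlaps only 127 of the 290 had a value, and 6 of these missed it. The replicate numbers are shared by the groups. Same-numbered libraries did not deviate together (correlation 0.0107 over genes). With only replicates 1 and 2 in each group, this cannot show whether they shared a culture run, and the labels do not say. With the replicate block, 5854 genes were higher and 5666 lower, and 7 named genes missed the threshold. The log2 fold changes that turned sign or went to 0 were 0.0294 for HBE1 and -1.06 for TAL1 by limma voom and -0.390 for TAL1 by DESeq2. With 1 library left out, the ranges that reached or passed 0 were -0.0129 to 0.172 for EEF1A1, -3.42 to 0.0827 for IFI44, -1.05 to 0.169 for KRT18, -0.0546 to 3.91 for KRT7, -8.51 to 2.95 for SOX17, 0.00 to 2.18 for TAL1, -10.64 to 0.00 for TBX1 and -0.412 to 0.0023 for VIM. The cause was not tested. Medians that changed sign were those of immediate early (no filter, limma voom, 4 libraries alone, replicate block, without MLC replicate 2, without MesoT FCS replicate 2, no opposite-strand overlaps), antagonists (1 CPM filter, 4 libraries alone, replicate block, no opposite-strand overlaps), endothelial (4 libraries alone, replicate block, without MesoT FCS replicate 1, no opposite-strand overlaps), simple keratins (without MLC replicate 1, without MesoT FCS replicate 2, no opposite-strand overlaps), cholesterol (without MLC replicate 2, without MesoT FCS replicate 2), interferon (without MesoT FCS replicate 1) and blood and immune (no opposite-strand overlaps). With 2 libraries a group, 3 residual degrees of freedom and MesoT FCS at lower depth, low genes in MesoT FCS rest on few counts.

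List counts that moved by over 1.5 times are as follows. With 1 library left out, 0 to 1 EMT regulator genes, 0 to 1 MMP and TIMP, 0 to 2 contractile, 1 to 2 YAP and TEAD, 7 to 11 retinoic acid, 2 to 3 antagonists, 0 to 1 cell cycle, 0 to 1 immediate early, 2 to 7 anterior HOX, 0 to 1 posterior HOX, 0 to 5 cholesterol, 0 glycolysis, 1 to 3 interferon, 1 to 4 imprinted, 1 to 7 mitochondrial, 0 to 2 endothelial, 4 to 10 hepatocyte, 1 to 7 cardiomyocyte and 1 to 3 neural rose. With 1 library left out, 1 to 2 mesothelial genes, 2 to 4 EMT regulators, 0 to 1 simple keratins, 7 to 11 mesenchymal, 2 to 6 fibrillar collagens, 0 to 4 basement membrane, 3 to 7 MMP and TIMP, 4 to 15 contractile, 5 to 10 TGF-beta, 2 to 6 YAP and TEAD, 0 BMP, 1 to 3 WNT, 1 to 3 antagonists, 7 to 12 caveola, 0 to 2 cell cycle, 2 to 4 cell cycle inhibitors, 0 to 3 immediate early, 0 to 3 lateral mesoderm, 3 to 9 posterior HOX, 0 to 1 cholesterol, 0 to 4 interferon, 1 imprinted, 2 to 5 endothelial, 2 to 3 pericyte, 0 to 2 cardiomyocyte, 2 to 4 neural and 1 blood and immune fell. Without genes that overlap the opposite strand, a setting chosen after seeing the data that leaves fewer members tested, 5 of the mesothelial list, 6 junction, 0 EMT regulators, 0 simple keratins, 0 mesenchymal, 0 fibrillar collagens, 3 basement membrane, 0 YAP and TEAD, 3 WNT, 2 antagonists, 0 cell cycle inhibitors, 8 amnion, 3 lateral mesoderm, 2 anterior HOX, 0 posterior HOX, 0 glycolysis, 0 imprinted, 7 hepatocyte, 4 gut epithelium, 2 cardiomyocyte and 3 pluripotency rose, and 0 of the mesothelial list, 2 EMT regulators, 0 simple keratins, 4 mesenchymal, 3 fibrillar collagens, 2 basement membrane, 1 MMP and TIMP, 4 contractile, 6 TGF-beta, 4 YAP and TEAD, 0 retinoic acid, 0 BMP, 1 WNT, 3 antagonists, 5 caveola, 3 cell cycle, 2 cell cycle inhibitors, 0 immediate early, 0 lateral mesoderm, 3 posterior HOX, 0 imprinted, 1 endothelial, 1 cardiomyocyte, 2 neural and 0 blood and immune fell. With a filter of 1 CPM in 2 libraries, 1 of the EMT regulators list and 3 imprinted rose, and 1 of the cardiomyocyte list and 1 blood and immune fell. Thinned to the lowest total, 0 of the EMT regulators list, 0 immediate early and 0 glycolysis rose, and 1 of the blood and immune list fell. With no filter on low counts, 2 of the fibrillar collagens list, 1 contractile, 3 immediate early and 1 glycolysis rose, and 1 of the imprinted list fell. By DESeq2, 2 of the fibrillar collagens list, 1 contractile and 3 immediate early rose, and 5 of the endothelial list fell. By limma voom, 2 of the fibrillar collagens list, 1 contractile and 2 immediate early rose, and 1 of the cardiomyocyte list fell. Fitted on the 4 libraries alone, 2 of the fibrillar collagens list, 2 TGF-beta, 1 caveola, 8 cell cycle, 2 cell cycle inhibitors, 3 immediate early and 2 endothelial rose, and 1 of the blood and immune list fell. With the replicate block, 2 of the fibrillar collagens list, 2 TGF-beta, 1 caveola, 5 cell cycle, 2 cell cycle inhibitors and 3 immediate early rose, and 4 of the immediate early list, 5 posterior HOX, 1 interferon, 1 imprinted, 1 cardiomyocyte and 1 blood and immune fell. With DESeq2 size factors, 0 of the BMP list fell.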
